A study of Mus musculus with 13 samples.

Results

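The 10 genes described here encode the machinery of MHC class I antigen presentation. They were taken by symbol from the deposited table, where all 10 had a row among 38377 gene identifiers. They were chosen with earlier results of these data known. The study sequenced bulk RNA of 13 mouse libraries in 6 groups. Female epiblast stem cells (EpiSC), the pluripotent lines of the post-implantation epiblast, were heterozygous for an Xist deletion (dXist, 2 libraries) or wild type (WT, 2). Female extraembryonic endoderm stem cells (XEN), lines of the primitive endoderm lineage that gives rise to yolk sac endoderm, were deleted for the paternal Xist allele and treated with 20 uM 5-aza-2'-deoxycytidine (2), WT and treated (2), deleted for the paternal allele and untreated (dXist, 3), or WT and untreated (2). The drug is a cytidine analogue that traps DNA methyltransferases and lowers DNA methylation. Xist is the RNA that silences an X chromosome in female cells, and none of the 10 genes is X-linked. EpiSC were kept on matrigel with FGF2 and Activin and XEN cells in serum, so the lines also differed in medium. The sources used here give neither mouse strain nor clones, and they do not say whether libraries of a group came from separate cultures, so each p-value reflects the spread among these libraries, which may be technical.

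Class I molecules show fragments of a cell's own proteins to cytotoxic T cells. The immunoproteasome subunits Psmb8 and Psmb9 replace catalytic subunits of the constitutive proteasome and change which fragments are cut, the transporter Tap1 and Tap2 carries the fragments into the endoplasmic reticulum, and tapasin (Tapbp) holds empty class I molecules at the transporter until a fragment is loaded. The heavy chains H2-K1 and H2-D1 are classical and polymorphic, H2-T23 encodes the non-classical Qa-1 chain, and B2m encodes the light chain that every class I molecule needs to reach the surface. Nlrc5 is the transactivator of class I promoters, and interferons raise the whole set in most cell types, while early embryonic cells are known for low class I expression.

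Libraries held 5848454 to 35247432 counts, and 3 counts in a library were worth 0.0815 to 0.498 CPM. CPM here are counts scaled to a common library total after TMM, which corrects totals for composition. Mitochondrial rRNA and Rn7sk, transcripts that poly(A) selection removes, took 10.4% to 13.5% of counts in both treated WT XEN libraries, in WT EpiSC library 2 and in dXist EpiSC library 2, called total-like below, and 0.0152% to 0.279% in the other 9, called polyA-like. The labels name a NEBNext Ultra and a TruSeq stranded kit without saying which library had which. Xist itself stood at 0.276 to 0.435 CPM in dXist EpiSC against 206 to 815 CPM in WT EpiSC, and at 1.16 to 4.79 CPM in dXist XEN against 1550 and 1590 CPM in WT XEN, while treated dXist XEN library 2 held 242 CPM. All 12 EpiSC markers exceeded 1 CPM in each EpiSC library and all 13 XEN markers in each XEN library. Among markers of immune cells, whose own class I expression is high, Ptprc reached at most 1.10 CPM and Itgam 0.141 CPM in any library. Others were higher, with Cd68 up to 44.2 CPM, H2-Ab1 up to 8.23 CPM and Cd74 up to 6.83 CPM. Cd74 stood at 2.88 CPM in WT XEN library 1 and 0.0319 CPM in library 2. The 14 markers summed to 3.22 to 50.7 CPM, and 1 to 6 of them exceeded 1 CPM in a library. The part of such cells in the members' levels was not tested.

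On GRCm38 8 of the 10 genes lie in the MHC on chromosome 17, in the order Tapbp at chr17:33915899-33929292, H2-K1 at chr17:33996017-34000347, Psmb9 at chr17:34181987-34187764, Tap1 at chr17:34187553-34197225, Psmb8 at chr17:34197721-34201454, Tap2 at chr17:34203527-34216321, H2-D1 at chr17:35262730-35267499 and H2-T23 at chr17:36029773-36032855. B2m is at chr2:122147686-122153083 and Nlrc5 at chr8:94434356-94527272. Psmb9 runs on the minus strand and its 5' end overlaps that of Tap1 on the plus strand, B2m overlaps Patl2, and Tapbp overlaps Zbtb22. No source used here says whether counting used strand, so reads of such overlaps cannot be assigned. Near-identical copies touch the heavy chains: of all 50-base windows of the transcripts, 14.3% in H2-D1, 8.11% in H2-K1 and 15% in H2-T23 occur in another gene, against 0 in B2m, Psmb8, Psmb9 and Nlrc5.

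The upstream sequences of 6 members are shown, those called between the cell types in the WT or the dXist libraries below for which RefSeq windows were given. They are the bases before the RefSeq start site on GRCm38.p6, each 250 long and read 5' to 3' on the gene's strand, apart from the 225 bases that separate the start sites of Psmb9 and Tap1, which are read on the plus strand and serve both genes. Capitals mark matches, on either strand, to the interferon-stimulated response element core (GAAA, any 2 bases, GAAA), the gamma-activated site TTCNNNGAA or the CCAAT box.
Psmb9-Tap1, chr17:34187331-34187555: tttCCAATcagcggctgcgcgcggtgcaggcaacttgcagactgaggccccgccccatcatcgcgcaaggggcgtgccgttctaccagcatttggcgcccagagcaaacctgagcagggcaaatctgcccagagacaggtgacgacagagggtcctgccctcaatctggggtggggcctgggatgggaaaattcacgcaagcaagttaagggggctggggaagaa
Psmb8, chr17:34197945-34198194, plus strand: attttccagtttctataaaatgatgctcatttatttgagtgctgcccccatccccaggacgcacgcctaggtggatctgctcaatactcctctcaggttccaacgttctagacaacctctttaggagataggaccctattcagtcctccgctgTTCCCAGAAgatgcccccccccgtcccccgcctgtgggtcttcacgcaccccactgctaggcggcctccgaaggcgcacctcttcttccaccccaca
H2-K1, chr17:34000348-34000597, minus strand: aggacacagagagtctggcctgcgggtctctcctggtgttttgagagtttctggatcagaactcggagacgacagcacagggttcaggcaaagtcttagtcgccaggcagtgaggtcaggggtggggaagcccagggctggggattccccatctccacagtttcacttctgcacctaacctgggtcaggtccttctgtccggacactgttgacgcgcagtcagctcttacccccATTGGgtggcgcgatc
H2-D1, chr17:35262844-35263093, plus strand: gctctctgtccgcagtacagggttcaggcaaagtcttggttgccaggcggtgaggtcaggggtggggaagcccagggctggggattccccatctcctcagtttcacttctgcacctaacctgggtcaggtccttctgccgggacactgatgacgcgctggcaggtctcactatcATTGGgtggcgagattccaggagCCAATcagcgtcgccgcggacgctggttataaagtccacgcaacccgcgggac
B2m, chr2:122147437-122147686, plus strand: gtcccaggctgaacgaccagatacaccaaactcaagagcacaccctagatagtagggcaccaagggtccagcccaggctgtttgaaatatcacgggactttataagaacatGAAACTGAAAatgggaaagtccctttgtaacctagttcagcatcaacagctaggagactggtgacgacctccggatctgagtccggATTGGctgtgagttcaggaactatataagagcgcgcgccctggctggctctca
RefSeq windows of 250 bases before to 50 bases after the start were given for 8 of the 10 genes, not for Tap2 and Nlrc5. In these, the response element core occurred in B2m, as GAAACTGAAA between positions -139 and -130 from the start, and in H2-T23, and in 3.43% of all 32817 mouse windows of that kind. Only exact matches were counted, so a window without a match, such as that of H2-K1 or H2-D1, may still hold a response element. TTCNNNGAA occurred in Psmb8 only among the 8, and in 8.29% of all windows. CCAAT occurred in 7 of the 8, all but Psmb8, and in 37.4% of all windows. CG pairs numbered 5 in the H2-T23 window and 11 to 19 in the others, against a median of 7 over all windows. The H2-K1 and H2-D1 stretches align over 177 bases with 161 identical (91%), and both hold GGGGATTCCC, a match to the kappaB-like pattern (GGG, any 5 bases, CC) that 50.8% of all windows hold on either strand. No motif match overlaps another of the 3 marked kinds.

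The level of the 10 genes spanned several orders of magnitude within a cell type. Per kilobase of exon, WT XEN cells held B2m at 125 ± 58.8 CPM per kb, H2-D1 at 67.5 ± 37.1, H2-K1 at 56.6 ± 8.89 and Tapbp at 21.4 ± 9.86 (SD, n = 2). The transporter and immunoproteasome genes were far lower there, with Tap1 at 0.775 ± 0.387 CPM per kb, Tap2 at 0.35 ± 0.0184, Psmb9 at 0.0449 ± 0.0142 and Psmb8 at 0.0344 ± 0.0354. WT XEN cells held RNA of the light and heavy chains with little RNA of the transporter and of the immunoproteasome subunits Psmb8 and Psmb9. The constitutive proteasome subunits were not low there, with Psmb5 at 78.4 ± 31.9 CPM, Psmb6 at 143 ± 53.3 CPM and Psmb7 at 113 ± 58.7 CPM. In WT EpiSC the spread was narrower: B2m stood at 125 ± 25.5 CPM per kb, H2-K1 at 19.4 ± 4.66, H2-D1 at 16.7 ± 5.01, Tapbp at 8.71 ± 1.51, Tap2 at 5.14 ± 1.53, Tap1 at 4.77 ± 1.82, Psmb8 at 2.31 ± 1.14 and Psmb9 at 1.08 ± 0.547 (n = 2). H2-T23 and Nlrc5 were low in both, with 0.379 ± 0.246 and 0.164 ± 0.0668 CPM per kb in WT EpiSC and 0.278 ± 0.377 and 0.00197 ± 0.00279 in WT XEN. H2-K1 and H2-D1 could not be ordered beyond their spread in either line, nor could Tap1 and Tap2 in WT EpiSC.

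**Figure D1:**
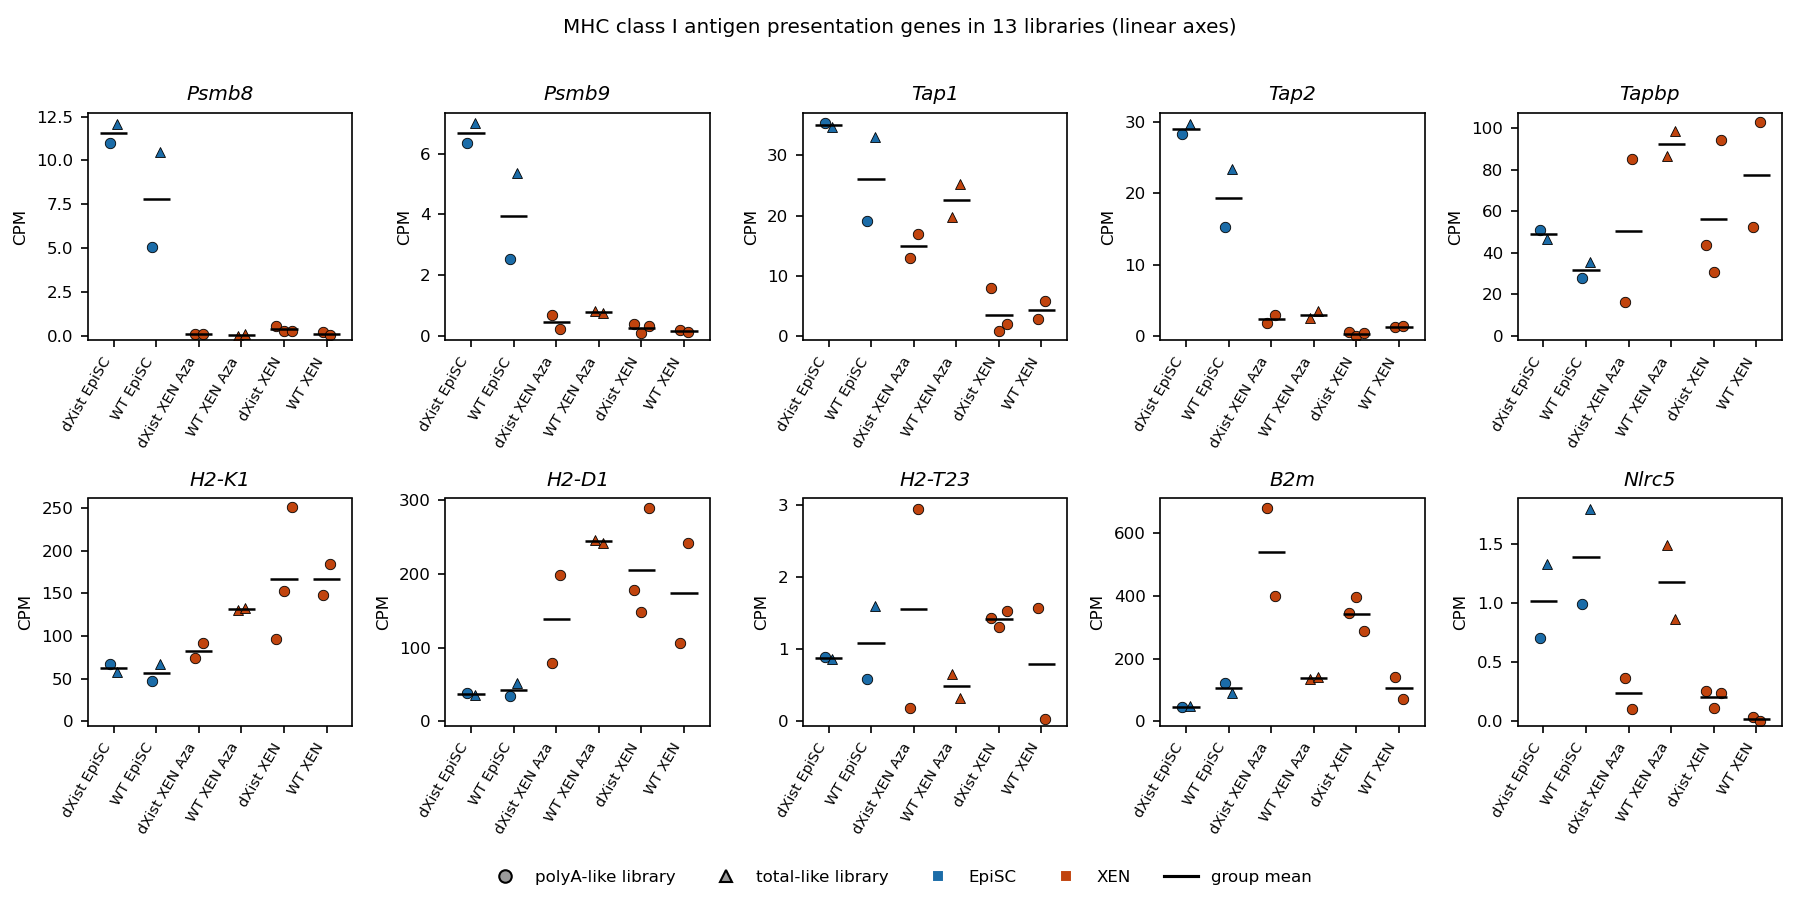
Level of each gene in CPM (y axis, linear, a separate scale for each panel) in the 6 groups (x axis), with a point per library, a line at the group mean, and triangles for total-like libraries. Psmb8, Psmb9 and Tap2 are high in the 4 EpiSC libraries and near 0 in the 9 XEN libraries, whereas B2m is highest in dXist XEN cells, at 288 to 678 CPM with and without treatment.

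The comparison of WT EpiSC with WT XEN asks how the cell types differ. Psmb8, Psmb9, Tap2 and Nlrc5 were higher in EpiSC and the heavy chains H2-K1 and H2-D1 were lower. By edgeR's quasi-likelihood F test at a Benjamini-Hochberg adjusted p under 0.05 over all genes, 4 of 10 members were higher and 2 lower, where 16.8% of all 19733 tested genes were higher and 14.1% lower (30.8% in all). The members' median log2 fold change was 1.53, and that of all tested genes 0.13. Whether a difference reflects RNA per cell or the fraction of cells that express a gene cannot be told apart in bulk samples.

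The immunoproteasome subunits were higher in EpiSC. Psmb8 (ENSMUSG00000024338) had 5.08 and 10.5 CPM in WT EpiSC against 0.201 and 0.0319 CPM in WT XEN, a 67.1-fold difference of means (log2 change 6.02, SE 0.926, edgeR adjusted p = 0.00174). Psmb9 (ENSMUSG00000096727) had 2.54 and 5.37 CPM against 0.201 and 0.128 CPM, 24.1-fold (4.55, SE 0.834, adjusted p = 0.00401). The WT XEN values rest on 6 and 1 counts of Psmb8 and 6 and 4 counts of Psmb9, near the limit of detection. Psmb10, the remaining immunoproteasome subunit, was also higher in EpiSC (19.2 ± 15.0 against 4.57 ± 2.20 CPM, n = 2 each, adjusted p = 0.0332). The constitutive subunits that the immunoproteasome replaces, Psmb5, Psmb6 and Psmb7, were not called (0 of 3), and Psmb6 stood at 181 ± 97.5 CPM in WT EpiSC and 143 ± 53.3 CPM in WT XEN.

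Of the transporter genes Tap2 was higher in EpiSC and Tap1 was not called. Tap2 (ENSMUSG00000024339) had 15.3 and 23.5 CPM in WT EpiSC against 1.27 and 1.37 CPM in WT XEN, 14.7-fold higher (log2 change 3.87, SE 0.779, edgeR adjusted p = 0.00606). Tap1 (ENSMUSG00000037321) had 19.1 and 33.1 CPM against 2.75 and 5.74 CPM, without overlap, but it missed the threshold (2.62, SE 0.912, adjusted p = 0.0541) and was called under 5 of 12 alternative settings. Tapbp (ENSMUSG00000024308), which bridges transporter and heavy chain, had 27.7 and 35.5 CPM against 52.4 and 103 CPM and was not called (-1.30, SE 0.518, adjusted p = 0.083), and was called under 3 of 12 alternative settings. Erap1, the aminopeptidase that trims peptides in the endoplasmic reticulum, was higher in EpiSC (25.7 ± 6.16 against 2.89 ± 0.246 CPM, adjusted p = 0.0161), and the cytosolic leucine aminopeptidase gene Lap3 was lower (69.9 ± 5.12 against 178 ± 67.7 CPM, adjusted p = 0.0166). Of 17 genes listed for peptide loading and processing apart from the members, 2 were higher and 1 lower.

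The classical heavy chains were lower in EpiSC. H2-K1 (ENSMUSG00000061232) had 47.4 and 66.8 CPM in WT EpiSC against 148 and 185 CPM in WT XEN (2.91-fold lower, log2 change -1.54, SE 0.434, edgeR adjusted p = 0.0252). H2-D1 (ENSMUSG00000073411) had 33.8 and 52.1 CPM against 106 and 242 CPM (4.05-fold lower, -2.02, SE 0.471, adjusted p = 0.0117). Neither gene's libraries overlapped between the cell types. Both calls were lost without single libraries: H2-K1 had adjusted p = 0.063 and 0.121 without WT XEN library 1 or 2 and 0.156 and 0.055 without WT EpiSC library 1 or 2, and H2-D1 had 0.0991 without WT XEN library 2 and 0.0974 without WT EpiSC library 1. The light chain gene B2m (ENSMUSG00000060802) had 123 and 91.8 CPM in WT EpiSC against 143 and 71.3 CPM in WT XEN, with overlapping libraries and a log2 change of 0.00 (SE 0.372). H2-T23 (ENSMUSG00000067212) had 0.593 and 1.60 CPM against 1.57 and 0.0319 CPM and could not be separated either (0.43, adjusted p = 0.799), but without WT XEN library 1 it was called higher in EpiSC (4.91, adjusted p = 0.0294).

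Other class I heavy chains had mixed directions. Of 15 tested, 5 were higher in WT EpiSC (H2-Q4, H2-Q6, H2-Q7, H2-T10 and H2-T22) and 1 was lower (H2-Q1). H2-Q4, a class Ib gene, stood at 26.0 ± 4.30 CPM in WT EpiSC and 2.01 ± 1.62 CPM in WT XEN (log2 change 3.69, adjusted p = 0.0037), and H2-Q1 at 0.129 ± 0.0228 and 8.09 ± 1.87 CPM (-5.94, adjusted p = 0.0029). Genes of the Q and T regions are near-identical copies, and how the counting split their reads is uncertain. No MHC class II gene of 8 tested was called, and Ciita, their transactivator, stayed at 0.0141 ± 0.02 CPM in WT EpiSC and 0.0813 ± 0.0203 CPM in WT XEN.

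Nlrc5 (ENSMUSG00000074151) was higher in WT EpiSC, at 0.988 and 1.79 CPM, than in WT XEN, at 0.0335 and 0 CPM (log2 change 6.06, SE 1.24, edgeR adjusted p = 0.00659). WT XEN held 1 count of it in all against 72 in WT EpiSC, a ratio of 78.6 with a 95% counting interval of 13.7 to 3145. Of 15 regulators of class I transcription, 4 were higher and 1 lower. They included Rfx5, which binds the X box of these promoters together with Nlrc5 (38.0 ± 2.96 against 4.69 ± 1.94 CPM, adjusted p = 0.00123), and Irf1, which binds the interferon response element (59.2 ± 15.3 against 11.3 ± 1.80 CPM, adjusted p = 0.00222). Of the NF-kappaB genes Nfkb1 was higher (54.3 ± 2.96 against 18.6 ± 8.78 CPM) and Rela lower (34.6 ± 2.58 against 102 ± 11.2 CPM).

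Interferon pathway genes had mixed directions between the cell types. Of 17 receptor and signalling genes 0 were higher and 4 lower in WT EpiSC, among them the receptor chains Ifnar2 (log2 change -1.64, adjusted p = 0.00859) and Ifngr2 (-1.48, adjusted p = 0.0413). Of 31 interferon-stimulated genes 11 were higher and 3 lower, with a median of 2.48. The chemokine gene Cxcl10 stood at 5.64 ± 0.991 CPM in WT EpiSC and 0.0167 ± 0.0237 CPM in WT XEN, and the ubiquitin ligase gene Trim25 at 0.232 ± 0.191 and 224 ± 10.6 CPM. Among 10 nucleic acid sensors 2 were higher, Zbp1 and Tmem173, which encodes STING.

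The dXist libraries of both lines gave the same contrast in other libraries, in the same fit, a comparison added after the WT result was seen. Tap2 had 28.4 and 29.8 CPM in dXist EpiSC against 0.545, 0.0374 and 0.407 CPM in dXist XEN (log2 change 6.46, SE 0.746, edgeR adjusted p = 0.000295). Tap1 was called here, with 35.3 and 34.7 CPM against 7.98, 0.785 and 1.93 CPM (3.32, SE 0.803, adjusted p = 0.0114). Psmb8 had 11.0 and 12.1 CPM against 0.577, 0.262 and 0.272 CPM (4.97, adjusted p = 0.000945). In all 4 members were higher and 3 lower, where 21.5% of genes were higher and 16.9% lower (38.4% in either direction). Psmb9 was higher too (4.58, adjusted p = 0.0012), H2-D1 lower (-2.43, adjusted p = 0.00349), and H2-K1 lower with a call that was lost without dXist EpiSC library 1 (adjusted p = 0.0887) or library 2 (0.172). Nlrc5 narrowly missed the threshold (2.33, adjusted p = 0.0539). H2-T23 (-0.66, adjusted p = 0.656) and Tapbp (-0.17, adjusted p = 0.789) were not called. B2m, which overlapped between the WT lines, was 7.40-fold lower in dXist EpiSC, at 44.8 and 48.0 CPM against 346, 396 and 288 CPM in dXist XEN (-2.86, SE 0.383, adjusted p = 0.000641).

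**Figure D2:**
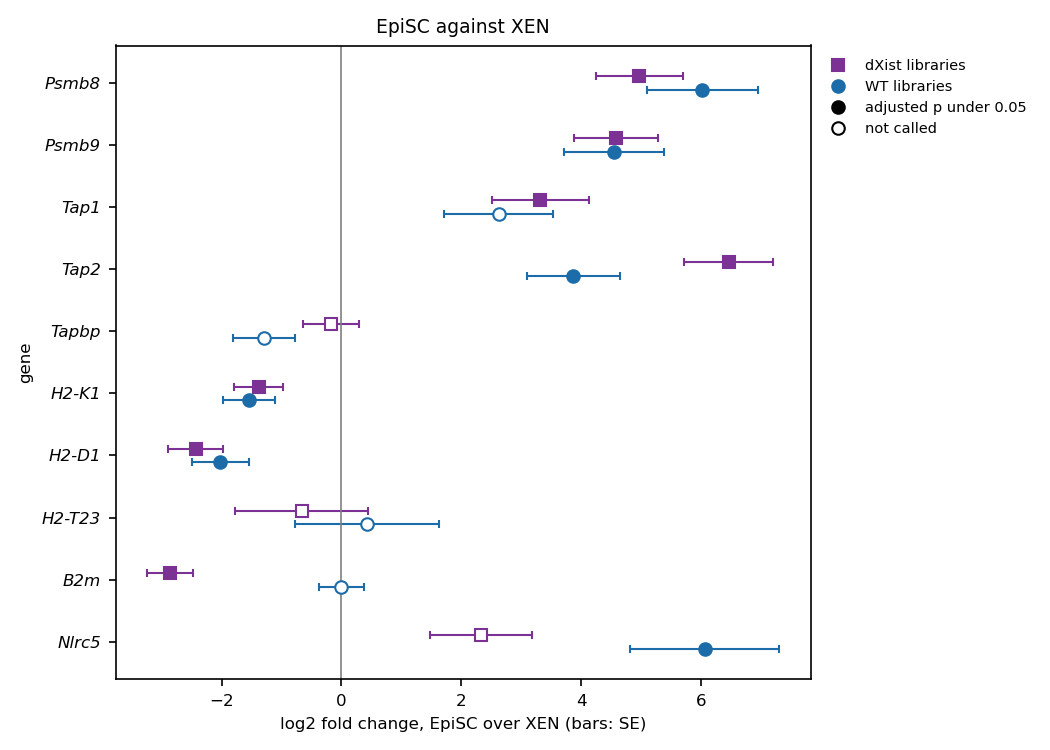
Log2 fold change of EpiSC over XEN (x axis) for each gene (y axis), with bars of 1 SE, squares for the dXist libraries and circles for the WT libraries; filled symbols have an adjusted p under 0.05. Psmb8, Psmb9 and Tap2 lie to the right in both, between 3.87 and 6.46, and H2-K1 and H2-D1 to the left in both, between -2.43 and -1.38; B2m is at 0.00 in the WT and -2.86 in the dXist libraries.

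Fibroblast markers, which would mark differentiated or feeder cells, varied between the EpiSC groups. In dXist EpiSC 8 of 12 exceeded 1 CPM with summed levels of 203 to 260 CPM, in WT EpiSC 11 of 12 with 768 to 905 CPM, and in XEN libraries 3 or 4 of 12 with 325 to 935 CPM. The XEN sums came mostly from Pdgfra, which is also on the XEN marker list, at 285 to 675 CPM, while the collagen genes Col1a1, Col1a2 and Col3a1 reached at most 4.61 CPM in XEN libraries against 375 CPM in WT EpiSC. Col1a1 stood at 163 and 104 CPM in dXist EpiSC against 375 and 216 CPM in WT EpiSC. In the same groups Col1a2 had 41.2 and 38.5 against 225 and 267 CPM, and Col3a1 5.62 and 4.79 against 135 and 148 CPM. The part of such cells in the members' differences between EpiSC and XEN was not tested. In the WT lines Psmb8, Psmb9, Tap2 and Nlrc5 each kept an adjusted p under 0.05 without the total-like WT EpiSC library and in a fit of all 13 libraries that had type as a term.

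The effect of the Xist deletion was compared within each cell type. In XEN cells no member was called, where 0% of 18393 genes were higher and 0.0217% lower, and DESeq2 and a fit without a filter on low counts each called 1 member, B2m. At an unadjusted p under 0.05 edgeR had 3 of the 9 tested members, B2m, Tap2 and Nlrc5, and 1973 of all genes. The members' median was 0.23 and that of all genes 0.

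B2m was the member with the smallest p in this contrast. It had 346, 396 and 288 CPM in dXist XEN against 143 and 71.3 CPM in WT XEN, 343 ± 54.1 (n = 3) against 107 ± 50.6 CPM (n = 2), 3.21 times the WT mean. All 3 deleted libraries lay above both WT libraries. The log2 change was 1.68 (SE 0.398, edgeR adjusted p = 0.279), with adjusted p between 0.00877 and 0.749 over 13 alternatives and the same sign in all 13. Its partner heavy chains showed no such gap: H2-K1 had 96.7, 153 and 251 CPM in dXist XEN against 148 and 185 CPM in WT XEN (0.01, SE 0.409), and H2-D1 had 178, 148 and 289 CPM against 106 and 242 CPM (0.23, SE 0.515).

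The transporter genes did not show a gap in the same direction as B2m. Tap2 had 0.545, 0.0374 and 0.407 CPM in dXist XEN against 1.27 and 1.37 CPM in WT XEN, all below the WT (-1.99, SE 0.872, adjusted p = 0.463). Tap1 had 7.98, 0.785 and 1.93 CPM against 2.75 and 5.74 CPM (-0.28, adjusted p = 0.933) and Tapbp 43.8, 30.8 and 94.3 CPM against 52.4 and 103 CPM (-0.47, adjusted p = 0.839), both with overlap. Nlrc5 had 0.257, 0.112 and 0.238 CPM against 0.0335 and 0 CPM, 18 counts against 1 (ratio 12.6, counting interval 1.99 to 525, adjusted p = 0.426). H2-T23 (1.44, 1.31 and 1.53 against 1.57 and 0.0319 CPM) and Psmb9 (0.385, 0.112 and 0.339 against 0.201 and 0.128 CPM) overlapped between the genotypes. Psmb8 was too low to be tested, at 0.37 ± 0.179 CPM in dXist XEN and 0.116 ± 0.12 CPM in WT XEN. dXist XEN library 3 stood apart in interferon-stimulated genes, with Usp18 at 35.5 CPM and Isg15 at 24.7 CPM against at most 1.03 and 1.61 CPM in the other dXist XEN libraries. Its Tap1, Tap2, Psmb8 and Psmb9 levels lay within the range of those libraries, with 8 counts of Psmb8 and 10 of Psmb9. Its H2-K1, H2-D1 and Tapbp levels, given above, were the highest of the 3. The part of interferon in these levels was not tested.

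In EpiSC no member was called in the fit without a term for library type, where 0% of 17132 genes were higher and 0% lower and 1741, B2m among them, had an unadjusted p under 0.05. The replicate numbers follow library type in these 4 libraries, so a block on the number compares genotypes within type. With it, 1 of 10 members was called, B2m, lower, where 4.91% of genes were higher and 6.53% lower, and DESeq2 without the block also called B2m alone (adjusted p = 0.0154). The block leaves 1 residual degree of freedom. Its edgeR p-values therefore follow a spread pooled over all genes far more than that of the single gene. The smallest adjusted p over all genes with it was 7.27e-75, from 4 libraries.

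B2m had 44.8 and 48.0 CPM in dXist EpiSC against 123 and 91.8 CPM in WT EpiSC, 2.31-fold lower, with no overlap. The log2 change was -1.18 (SE 0.274, edgeR adjusted p = 0.279) without the block and -1.17 (SE 0.295, adjusted p = 0.00162) with it, and the ratio of single libraries was -1.45 on the log2 scale in the polyA-like pair and -0.93 in the total-like pair. Patl2, whose gene overlaps B2m on the other strand, changed the opposite way with the block (3.18, adjusted p = 0.000182). Tap1, Tap2, Tapbp, Psmb8 and Psmb9 had log2 changes of 0.44 to 0.78. None was called (edgeR adjusted p of 0.504 to 0.709 without the block and 0.114 to 0.309 with it). Of the 10 members 6 had a positive change without the block, where 49.8% of all tested genes did. Psmb9 had 6.36 and 6.99 CPM in dXist EpiSC against 2.54 and 5.37 CPM in WT EpiSC, and Tapbp 51.1 and 46.8 CPM against 27.7 and 35.5 CPM. The total-like pair differed less than the polyA-like pair, by 0.06 against 0.88 for Tap1. H2-K1 (67.4 and 57.6 against 47.4 and 66.8 CPM), H2-D1 (38.8 and 35.9 against 33.8 and 52.1 CPM), H2-T23 (0.896 and 0.874 against 0.593 and 1.60 CPM) and Nlrc5 (0.706 and 1.33 against 0.988 and 1.79 CPM) overlapped between the genotypes.

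Part of the interferon pathway fell in dXist EpiSC with the block, whose p-values have the limit given above. Of 28 tested interferon-stimulated genes 9 fell and 2 rose, and of 17 receptor and signalling genes 3 fell, Usp18, Irf7 and Irf9. Irf7, the factor that amplifies interferon production, stood at 0.19 and 0.414 CPM in dXist EpiSC against 2.34 and 2.90 CPM in WT EpiSC (-3.16, adjusted p = 6.75e-08), and Isg15, a ubiquitin-like protein gene, at 0.924 and 0.552 CPM against 3.39 and 5.08 CPM (-2.42, adjusted p = 1.4e-06). Among other heavy chains 1 of 12 fell, H2-Q2. Fibroblast markers were lower in the same libraries, as given above, and their part in these differences and in that of B2m was not tested.

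The deletion effect on B2m had opposite signs in the lines, and the difference was tested as an interaction. The effect in EpiSC minus that in XEN was -2.86 (SE 0.521, unadjusted p = 0.000319), rank 39 among all genes, with an edgeR adjusted p of 0.144. No member was called, where 0.00507% of genes were higher and 0.00507% lower (0.0101% in all), and B2m, Tap2 and Nlrc5 were among 2041 genes at an unadjusted p under 0.05. B2m was called under DESeq2 (adjusted p = 5.29e-05), with no filter (0.000154), with the replicate block (0.0184) and without dXist XEN library 3 (0.0205), and the adjusted p over all 16 alternatives ran up to 0.779. Tap2 (2.59, adjusted p = 0.43) and Nlrc5 (-3.74, adjusted p = 0.438) followed.

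**Figure D3:**
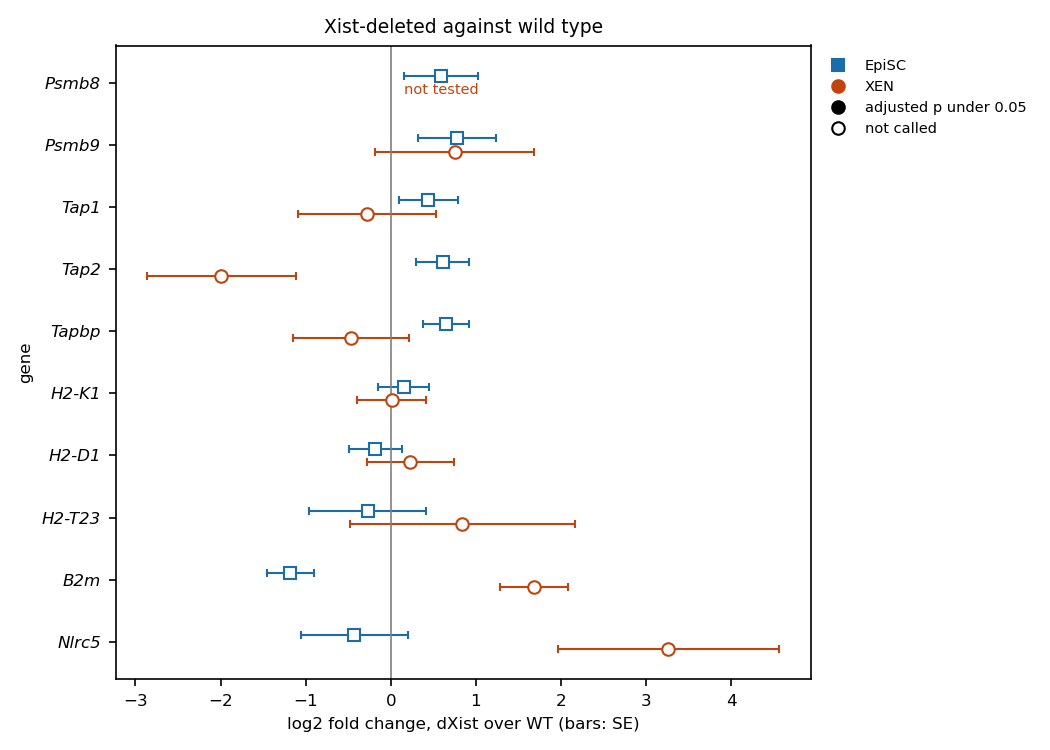
Log2 fold change of dXist over WT (x axis) for each gene (y axis) in EpiSC (squares) and XEN (circles), with bars of 1 SE; open symbols are not called. B2m lies at -1.18 in EpiSC and 1.68 in XEN, and Psmb8 was not tested in XEN.

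The treatment with 5-aza-2'-deoxycytidine was compared with untreated XEN cells in each genotype. In WT XEN no member was called, where 0.549% of 18393 genes were higher and 0.0326% lower (0.582% in all). DESeq2 called 1 member, Nlrc5, and a fit without a filter called 1, Tap1. At an unadjusted p under 0.05 edgeR had Nlrc5 and Tap1, and 2279 of all genes. Both treated WT libraries were total-like and both untreated ones polyA-like, so the drug and the type of library cannot be told apart in this contrast.

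Tap1 had 19.8 and 25.2 CPM in treated WT XEN against 2.75 and 5.74 CPM in untreated WT XEN, 5.29 times the untreated mean (log2 change 2.48, SE 0.932, edgeR adjusted p = 0.33). The 2 treated libraries lay within the range of the EpiSC libraries, at 19.1 to 35.3 CPM. Nlrc5 had 1.49 and 0.86 CPM against 0.0335 and 0 CPM, 17 counts against 1 (ratio 67.9, counting interval 10.6 to 2839, adjusted p = 0.147). Psmb9 (0.83 and 0.753 against 0.201 and 0.128 CPM, adjusted p = 0.411) and Tap2 (2.49 and 3.44 against 1.27 and 1.37 CPM, adjusted p = 0.642) were also higher in both treated libraries, while Psmb8 had 1 count in treated and 7 in untreated WT XEN (ratio 0.571, interval 0.0127 to 4.44). The heavy and light chains differed little: H2-K1 had 130 and 133 against 148 and 185 CPM (-0.25), H2-D1 246 and 242 against 106 and 242 CPM (0.56), and B2m 136 and 143 against 143 and 71.3 CPM (0.47). Tapbp (86.7 and 98.5 against 52.4 and 103 CPM) and H2-T23 (0.664 and 0.323 against 1.57 and 0.0319 CPM) overlapped.

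In dXist XEN, where treated and untreated libraries were all polyA-like, no member was called either, where 0.0707% of genes were higher and 0.00544% lower (0.0761% in all). Tap1, Tap2 and H2-K1 were among 4921 genes at an unadjusted p under 0.05. DESeq2 called Tap2 (adjusted p = 0.0142), a fit of all 13 libraries with a term for type did so too (0.0419), and a fit without a filter called Tap1 (0.0289). Tap2 had 1.78 and 2.91 CPM in treated dXist XEN against 0.545, 0.0374 and 0.407 CPM in untreated dXist XEN, 7.11 times the untreated mean (log2 change 2.67, SE 0.878, edgeR adjusted p = 0.11). Tap1 had 13 and 17 CPM against 7.98, 0.785 and 1.93 CPM, 4.20 times (1.94, SE 0.80, adjusted p = 0.161). Tap1 stood at 13 to 25.2 CPM in the 4 treated XEN libraries and at 0.785 to 7.98 CPM in the 5 untreated ones. Tap2 stood at 1.78 to 3.44 CPM and at 0.0374 to 1.37 CPM in these, below every EpiSC library (15.3 to 29.8 CPM). The treated WT libraries among them were total-like, and the share of all genes with such a gap was not counted.

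The other members had mixed directions in treated dXist XEN. H2-K1 had 74.6 and 91.6 CPM against 96.7, 153 and 251 CPM, below all untreated libraries (-1.16, SE 0.425, adjusted p = 0.13), and B2m 678 and 399 CPM against 346, 396 and 288 CPM, above all untreated libraries (0.49, adjusted p = 0.411). Nlrc5 had 0.368 and 0.104 CPM against 0.257, 0.112 and 0.238 CPM (0.00), and the interaction of treatment and genotype for Nlrc5 was -5.84 (SE 1.74, unadjusted p = 0.00749, adjusted p = 0.517). No member was called in that interaction, where 0.00544% of genes were higher and 0.239% lower (0.245% in all), nor by DESeq2. Treated dXist libraries 1 and 2 disagreed for Tapbp (16.3 and 85.2 CPM), H2-D1 (78.6 and 198 CPM) and H2-T23 (0.184 and 2.95 CPM), each across the range of the untreated libraries or beyond it. Psmb9 (0.674 and 0.243 against 0.385, 0.112 and 0.339 CPM) overlapped, and Psmb8 stayed at 0.123 and 0.104 CPM against 0.577, 0.262 and 0.272 CPM.

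The library labelled treated dXist XEN 2 held Xist at 242 CPM, against 14.6 CPM in treated library 1 and at most 4.79 CPM in untreated dXist XEN. The label names a deletion of the paternal allele only, and the source of this Xist RNA was not tested. Without treated dXist XEN library 2 the treated group is 1 library, assumed to vary like the other groups. Tap1 was then 1.65 (edgeR adjusted p = 0.253) and Tap2 2.18 (0.167), both still higher, and B2m 0.76 (0.182) and H2-K1 -1.40 (0.0943) kept their signs. H2-D1 was -1.61 (0.0792), Tapbp -2.02 (0.0743) and H2-T23 -3.14 (0.252), and the interaction for Nlrc5 was -5.20 (0.134). The members called stayed at 0, whereas calls over all genes numbered 4730 without that library and 14 with it.

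**Figure D4:**
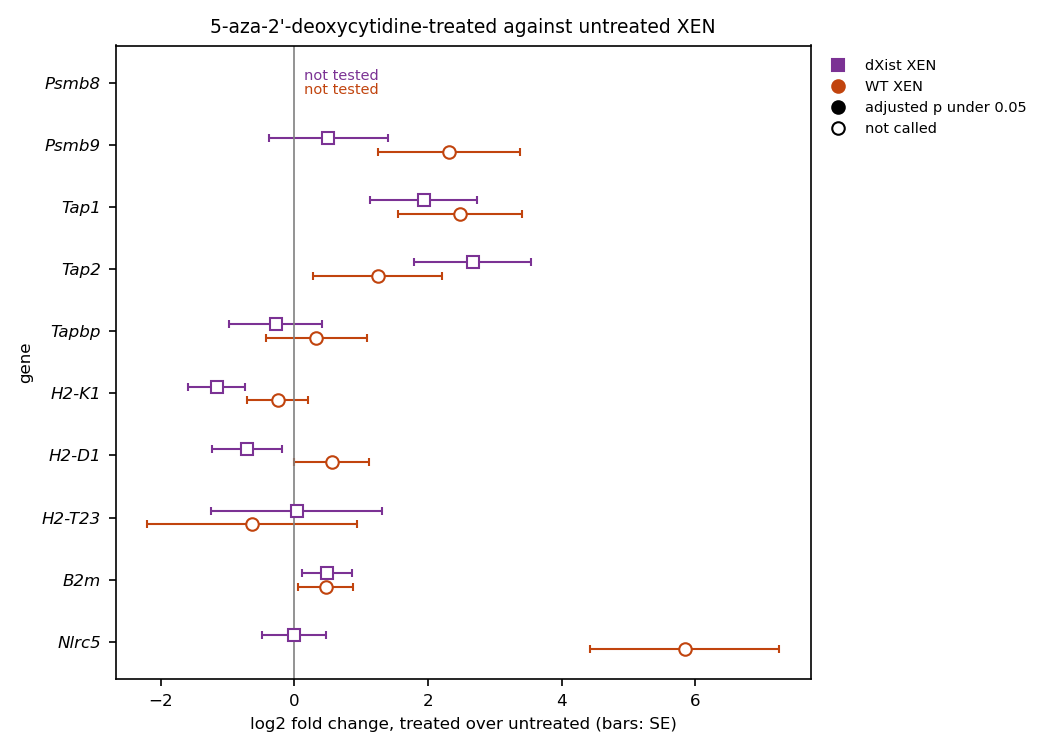
Log2 fold change of treated over untreated XEN cells (x axis) for each gene (y axis) in dXist (squares) and WT (circles), with bars of 1 SE; open symbols are not called and Psmb8 was not tested. Tap1 (1.94 and 2.48) and Tap2 (2.67 and 1.25) lie to the right of 0 in both genotypes, and Nlrc5 at 0.00 in dXist and 5.84 in WT XEN. The bar of Nlrc5 in dXist is unreliable, because its change is near 0.

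None of the interferon or class I lists had a called gene in the treatment contrasts, but without treated dXist XEN library 2 the dXist contrast had calls in several lists, among them 3 other class I heavy chains lower, and 2 interferon-stimulated genes higher and 1 lower. Of 29 tested interferon-stimulated genes 28 were positive in treated WT XEN (median 2.38, all genes -0.04) and 23 in treated dXist XEN (median 1.08, all genes -0.02). Cxcl10 had 0.83 and 1.94 CPM in treated WT XEN against 0.0335 and 0 CPM in untreated WT XEN, and 1.47 and 0.624 CPM in treated dXist XEN against 0.0321, 0.0374 and 0 CPM in untreated dXist XEN (adjusted p = 0.134 and 0.0698). Other class I heavy chains had 9 of 13 positive in treated WT XEN (median 0.84) and 4 of 13 in treated dXist XEN (median -0.80).

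Across the 9 XEN libraries the members did not vary as a unit. On log2(CPM + 1), Pearson's r was 0.897 for Tap1 with Tap2, 0.901 for Psmb9 with Nlrc5 and 0.881 for H2-D1 with Tapbp, and -0.713 for B2m with Tapbp. These are descriptions over 9 libraries that share groups and library types, and Psmb9 and Nlrc5 rest on few counts. The genes whose pattern was most like the members' mean, among 13368 candidates, were Pcdhgb2 (0.916), Igsf23 (0.908), Mxd4 (0.893), Tor3a (0.878), Ube2l6 (0.877), Mlec (0.872), Nipal1 (0.868) and Amn (0.861).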

How the data were processed

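The authors deposited raw counts of reads per gene, without normalisation; per the submitters' processing notes FastQC, STAR 2.7.9a and featureCounts 2.0.1 were used on GRCm38 (mm10). The handling of multi-mapped reads is not given in those notes. GENCODE vM21 gave symbols for 38240 identifiers (99.64%), and RefSeq the promoter windows.

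Counts were tested in R 4.3.3 with edgeR 4.0.16 (TMM, filterByExpr, robust quasi-likelihood F test, Benjamini-Hochberg over all tested genes). Separate fits held the XEN libraries (5 residual degrees of freedom), the EpiSC libraries (2) and all untreated libraries (5). An SE is the absolute log2 change divided by the root of F. It can be unreliable where the change is near 0, as for Nlrc5 in treated dXist XEN (0.477, against 1.41 in treated WT XEN). Levels are mean ± SD in CPM. Ratios in which a group held 1 count in all carry exact 95% intervals, which cover counting error only. Other ratios of low counts, such as that of Psmb8 between the WT lines, carry none. Alternatives were RLE factors, DESeq2 1.42.0, other filters, a replicate block, library type, protein-coding totals and left-out libraries. The procedure was also run on simulated counts, whose spread depended on expression level alone and which held no effect of library type. The outcome is not given here, and it cannot speak to such effects in the real libraries.

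All 10 members are named in every comparison of a group with another group, but not in the interactions. In each list up to 4 called genes with the smallest adjusted p, called neighbours within 100 kb by the same rule, and the 8 genes most like the members' mean in XEN (mean of at least 1 CPM) may be named. H2-Q6, H2-T22, Psmb6 and its fellow subunits, Ciita, and the XEN values of Usp18, Isg15 and Cxcl10 were chosen after their values were seen. Members and lists were chosen with earlier results of these data known, and dXist EpiSC against dXist XEN was added after seeing the data.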

Additional observations from a re-analysis of the deposited data

How the results depend on the processing

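Members called under alternative settings were few where the result above is 0. In dXist against WT XEN the count of members higher became 1 under DESeq2 and with no filter (B2m both times). In treated against untreated WT XEN it became 1 under DESeq2 (Nlrc5), with no filter and in a fit of only the groups compared (Tap1 in both), and in treated against untreated dXist XEN 1 under DESeq2, with no filter and with library type over all 13 libraries. In dXist against WT EpiSC the count lower became 1 under DESeq2 and with the replicate block, and in the deletion interaction 1 under DESeq2, with no filter and with the replicate block, and 0 to 1 with libraries left out. In WT EpiSC against WT XEN the 2 members lower became 0 to 1 with libraries left out. Tap2, Psmb8 and Psmb9 were called in all 12 alternatives there and Nlrc5 in all 11 that tested it. Counts over all genes moved more: 4 (1 to 684) for dXist XEN, 107 (0 to 927) and 14 (0 to 4730) for the treatment in WT and dXist XEN, 45 (0 to 1605) for its interaction, 0 (0 to 1960) for dXist EpiSC, 6085 (3045 to 7893) for WT EpiSC against WT XEN, 2 (1 to 743) for the deletion interaction and 7568 (3412 to 8629) for dXist EpiSC against dXist XEN. The causes were not tested.

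The replicate numbers are no stated pairing. Same-numbered EpiSC libraries deviated together from their group means (correlation 0.75), as did library type, and XEN pairs did not (-0.14 to 0.09). With 2 libraries in each EpiSC group, both pairs give the same value by construction. The replicate block changed the call of B2m in dXist EpiSC (log2 change -1.17) and in the interaction (-3.01), and of Tapbp in WT EpiSC against WT XEN (-1.28, adjusted p = 0.0215). Depth limits Psmb8, Psmb9, Nlrc5 and H2-T23 in XEN cells, which held few counts.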

Other observations

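Genes next to the members did not share a direction between the cell types. Of 110 genes within 100 kb of a member 72 were tested in WT EpiSC against WT XEN, and 6 were higher and 11 lower, where 16.8% of all genes were higher and 14.1% lower, or 29 positive and 43 negative. The lymphotoxin gene Ltb, in the MHC near H2-D1, was higher (log2 change 9.22, adjusted p = 0.00144), and Sord, the sorbitol dehydrogenase gene near B2m, was lower (-2.96, adjusted p = 0.00396). In treated against untreated dXist XEN 49 of 65 tested neighbours were negative with a median of -0.88, where that of all genes was -0.02, and 0 were called.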
